A study of Mus musculus with 3 samples.

Results

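Proliferating regulatory T (Treg) cells were picked from tumour-infiltrating T cells of mice by their transcripts: at least 1 UMI (a counted RNA molecule) of Foxp3, no UMI of Cd8a or Cd8b1, and at least 3 UMIs of Mki67, Top2a and Birc5 together. The rule found 216 such cells, 100 from MC38-Ova and 116 from B16-Ova tumours, or 1.44% of the 14992 cells that passed the filters. They were compared with non-proliferating Foxp3+ cells, which met the same Foxp3 and CD8 rule and held no UMI of the 3 proliferation genes. There were 1063 of these, 605 from MC38-Ova and 458 from B16-Ova tumours. A further 255 MC38-Ova and 203 B16-Ova Foxp3+ cells held 1 or 2 UMIs of the proliferation genes and were in neither group.

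The tumours were MC38-Ova colon carcinoma and B16-Ova melanoma, both made to express ovalbumin and grown under the skin of C57BL/6 mice until day 14. T cells sorted as TCRB+CD3+CD90.2+CD11b- were tagged, pooled and run in 1 droplet capture. The tags were a hashtag for each tumour, antibodies to PD-1 and Tim-3, and an anti-biotin antibody that read biotinylated L-Pha. L-Pha is a plant lectin that binds branched N-glycans at the cell surface. The number of mice behind each hashtag was not given, so each tumour is 1 pool of cells. No cell without the lectin was captured, no genotype or drug was varied, and ovalbumin was shared by every group.

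Foxp3 encodes the transcription factor that defines Treg cells, which restrain other T cells and are often abundant in tumours. Treg cells in tumours can divide, and the genes of DNA copying and of mitosis are then switched on in turn. Mki67 encodes the Ki-67 protein of cycling cells, Top2a a topoisomerase that untangles chromosomes, and Birc5 survivin, a part of the complex that steers chromosome separation.

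The 5 tags were told apart by their oligonucleotide barcodes, which are shown because every assignment to a tumour and every surface value below rests on counting them.
Hashtag 2, MC38-Ova: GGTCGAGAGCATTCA
Hashtag 1, B16-Ova: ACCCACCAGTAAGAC
Anti-biotin, reading L-Pha: CGGTATATCAACAGA
PD-1: GAAAGTCAAAGCACT
Tim-3: ATTGGCACTCAGATG

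The members were checked against the Treg label with markers other than the rule genes. Of the 6 markers Il2ra, Ctla4, Ikzf2, Tnfrsf4, Tnfrsf18 and Cd4, at least 5 were detected in 83 of 100 MC38-Ova and 106 of 116 B16-Ova proliferating Foxp3+ cells. The counts were 374 of 605 and 278 of 458 in non-proliferating Foxp3+ cells, which held fewer UMIs each. At most 2 of the markers were detected in 3 MC38-Ova and 1 B16-Ova members. Ctla4, an inhibitory receptor that Treg cells hold at high levels, was detected in 91% and 98.3% of members, against 82.1% (MC38-Ova) and 89.9% (B16-Ova) of proliferating CD8 cells, so detection separated these little. Its level was 1225 and 1477 CPM in members, against 342 and 399.97 CPM in proliferating CD8 cells. Tnfrsf18, a costimulatory receptor, was likewise detected in 98% and 99.1% of members, against 86.0% and 86.9% of proliferating CD8 cells. Ikzf2, the Treg transcription factor Helios, was detected in 91 and 110 members, against 46.1% (MC38-Ova) and 56.3% (B16-Ova) of proliferating CD8 cells. Proliferating Cd4+ cells without Foxp3 or CD8 UMIs, 42 and 40 cells, were shallower, at medians of 10724 and 7645.5 RNA UMIs. In these, Ctla4 was detected in 85.7% and 82.5%, at 435 and 681 CPM, Tnfrsf18 in 90.5% and 82.5%, and Ikzf2 in 35.7% and 45%. A single Foxp3 UMI is weaker evidence: it was the whole Foxp3 signal in 25 and 27 members. A Foxp3 UMI was also held by 28.5% and 32.4% of all cells with a CD8 UMI, at medians of 7686 and 8184.5 RNA UMIs, and by 12.3% and 11.7% of Klra7+ cells without a Cd4 UMI, at medians of 6700 and 5818. The CD8 rule mattered too: of the cells that met the other 2 rules, 304 MC38-Ova and 405 B16-Ova cells held at least 3 CD8 UMIs and 42 and 70 held 1 or 2.

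Proliferating Foxp3+ cells were the deeper group. Their median was 11468 (MC38-Ova) and 14384 (B16-Ova) RNA UMIs per cell, against 5020 and 4727 RNA UMIs in non-proliferating Foxp3+ cells. Summed over cells this gave 1595411 and 1809517 RNA UMIs, against 3505881 and 2433572. Because the rule counts raw UMIs, it favours cells with much RNA, and a larger cell and a better captured one cannot be told apart. Each comparison was therefore repeated against depth-matched cells, pairing each member with the non-proliferating Foxp3+ cell of its own pool nearest in RNA UMIs, within 10%. Partners were found for 81 MC38-Ova and 71 B16-Ova members. The 19 and 45 members without one had more RNA on the whole, with medians of 24330 and 22684 RNA UMIs.

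A few members carried RNA of cells that are not T cells. In 6 MC38-Ova and 2 B16-Ova members there were over 10 UMIs of macrophage, dendritic, melanoma, stroma or other non-T marker lists, or no Cd3d, Cd3e or Cd3g UMI. These 8 cells held 25.6% of the MC38-Ova and 3.69% of the B16-Ova members' RNA UMIs. One MC38-Ova member held 1119 of the 1133 melanoma-list UMIs, 3 MC38-Ova members held 665 of the 675 stroma-list UMIs, and 1 B16-Ova member held 1038 of the 1147 macrophage-list UMIs. Melanoma was the tumour of the other pool, and how its RNA came to a cell with the MC38-Ova hashtag was not tested. Gamma-delta T cell markers summed to 5 and 3 UMIs in the members, with Sox13 at 0 in both pools, and the B cell marker Ms4a1 was at 0. The B cell list as a whole summed to 234 and 190.1 CPM in the members, against 253 and 179.6 CPM in non-proliferating cells, nearly all of it from Ighm, the IgM heavy chain gene, with 356 and 318 UMIs in members. Results are given with these 8 cells and, in a version chosen after they were seen, without them and without 21 MC38-Ova and 7 B16-Ova non-proliferating cells caught by the same rule. Most of those non-proliferating cells were left out for lacking a Cd3 UMI, 17 and 6 of them, while 5 and 1 held over 10 non-T UMIs. Their medians were 1149 and 943 RNA UMIs. Below, all cells left out by this rule are called cells with non-T RNA for short. The depth-matched MC38-Ova comparison cells held such RNA too: the dendritic list summed to 31.2 CPM in proliferating and 695 CPM in depth-matched non-proliferating cells, and to 33.4 and 55.5 CPM without the cells left out.

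Proliferating cells made up 10.4% of MC38-Ova Foxp3+ cells (95% exact Clopper-Pearson interval 8.56 to 12.5) and 14.9% of B16-Ova Foxp3+ cells (12.5 to 17.6). These intervals cover counting error only, and with 1 pool per tumour no test of the tumours was possible. Among CD8 cells without Foxp3 UMIs the same rule gave 414 of 3762 and 435 of 2668 cells, and among Cd4+ cells without Foxp3 or CD8 UMIs 5.71% and 5.31%. When every cell was thinned to 5000 RNA UMIs and shallower cells were left out, the shares were 10.5% and 14.2% of Foxp3+ cells, 9.70% and 13.6% of CD8 cells, and 6.88% and 9.25% of Cd4+ Foxp3- cells. Just inside the threshold stood 11 MC38-Ova and 27 B16-Ova cells with a proliferation sum of 3, whose S phase list summed to 1245 and 2007 CPM (UMIs per 1000000 RNA UMIs of the summed cells). Just outside it stood 58 and 56 cells with a sum of 2, at 1290.4 and 1682 CPM. Their G2/M list summed to 1715 and 1366 CPM inside and 1335 and 1253 CPM outside the threshold.

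The members differed widely among themselves in where they stood in the cell cycle. On counts thinned to 5000 RNA UMIs, the 34 genes of the S phase list summed to a median of 16 UMIs (quartiles 6.5 to 29) in 87 MC38-Ova members and 19 UMIs (7 to 35) in 103 B16-Ova members. The 46 genes of the G2/M and mitosis list summed to medians of 20 UMIs (10 to 39) and 19 UMIs (9 to 32). In non-proliferating Foxp3+ cells the medians were 4 and 4 UMIs for S phase and 5 and 5 UMIs for G2/M. More G2/M than S phase UMIs were counted in 55 MC38-Ova and 53 B16-Ova members, and more S phase UMIs in 30 and 47. Non-proliferating Foxp3+ cells leaned the same way, with more G2/M UMIs in 198 and 106 cells and more S phase UMIs in 78 and 75, and the G2/M list holds more genes. Since Top2a and Birc5 peak late in the cycle, the rule itself favours cells there.

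**Figure D1:**
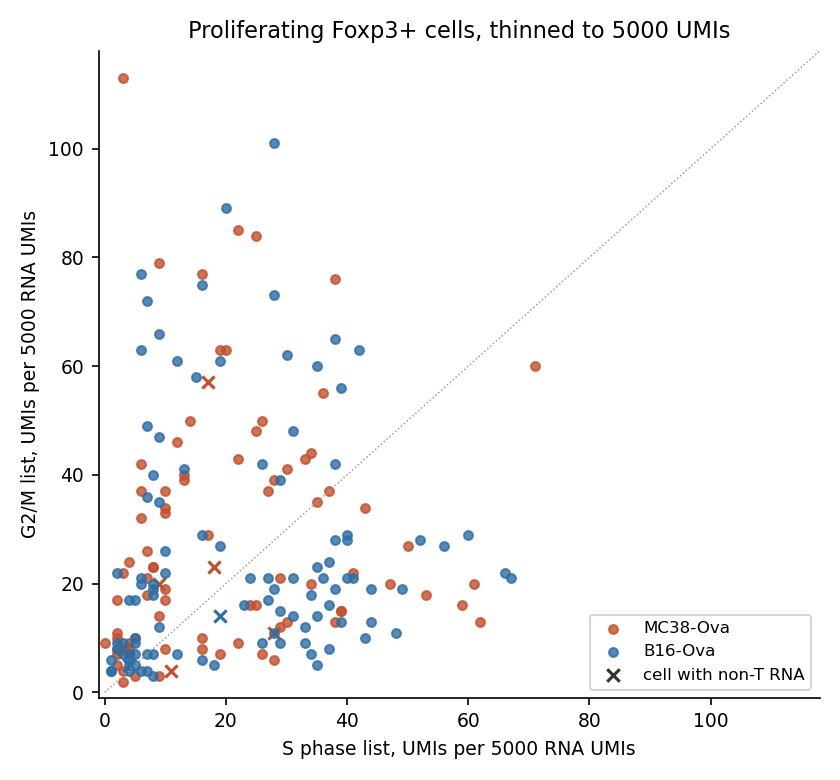
Each point is 1 proliferating Foxp3+ cell thinned to 5000 RNA UMIs, with the summed UMIs of the S phase list on the horizontal and of the G2/M list on the vertical axis, crosses marking cells with non-T RNA and the dotted line equal sums. Above the line lie 55 MC38-Ova and 53 B16-Ova cells, below it 30 and 47.

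To compare the states, UMIs were summed per pool and state, giving 4 sums, and tested with edgeR's quasi-likelihood test, in which the pool entered as a block and p-values were adjusted by Benjamini-Hochberg across every gene fitted. Of 9263 genes, 1352 were higher (14.6%) and 1009 lower (10.9%) in proliferating Foxp3+ cells at an adjusted p under 0.05, leaving out the rule genes. Without the cells with non-T RNA, 1433 (15.8%) and 1060 (11.7%) of 9067 genes passed. Against depth-matched cells, 510 (7.38%) and 319 (4.62%) of 6907 genes passed. With both restrictions, 509 (7.47%) and 340 (4.99%) of 6814 genes passed. Of the depth-matched calls, 442 of 510 higher genes and 200 of 319 lower genes were also called against all non-proliferating cells, and 6 genes were called in opposite directions. The pools are 2 sets of cells of 1 capture, so these p-values measure the spread between those sums only and do not cover animals. In the depth-matched fit, and in the fit without the cells with non-T RNA, that spread was borrowed wholly from the trend over genes.

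The cell cycle lists stood far above zero, which the rule largely fixes, since its 3 genes belong to the same programme. They are therefore given as a description. All 34 genes of the S phase list were among the genes called higher, with a median log2 fold change of 2.38, as were 45 of 46 genes of the G2/M list, with a median of 3.69. Over all tested genes the median was -0.02. Among the genes with the largest changes at 20 CPM or more were Hist1h2ap, a replication-dependent histone H2A gene with close copies that could share reads, Hmmr, which binds the mitotic spindle, and Cdc20, which activates the ubiquitin ligase that starts chromosome separation. Ccnb2 encodes a B-type cyclin of mitosis and Cdk1 the kinase that cyclin drives. Ccnb2 (chromosome 9, 70407692 to 70421547, GRCm38) stood at 182 (MC38-Ova) and 148 CPM (B16-Ova) in proliferating cells, against 7.13 and 7.40 CPM in non-proliferating cells. Cdk1 (chromosome 10, 69335146 to 69352938) stood at 103 and 98.9 CPM, against 4.85 and 3.70 CPM. Pclaf, which binds the replication clamp (chromosome 9, 65890237 to 65903266), stood at 433 and 555 CPM, against 18.2 and 16.03 CPM. In each of these 3 genes both proliferating sums were well above both non-proliferating sums. The exception in the G2/M list was Pttg1, securin, which holds separase back until chromosomes part. It stood at 92.8 and 77.9 CPM in proliferating cells, against 128 and 117 CPM in non-proliferating cells, and its log2 fold change was -0.51 (SE 0.14) against all and -0.36 (SE 0.20, adjusted p 0.307, edgeR quasi-likelihood) against depth-matched cells.

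Promoters of some of these genes are shown because short sequence elements were more frequent in the cell cycle lists than in all tested genes. Windows run from 250 bases before to 50 bases after a RefSeq gene start on GRCm38.p6, read 5′ to 3′ on the gene's strand. Capitals mark the CHR element (TTTGAA or TTCGAA), the CCAAT box (CCAAT) and the E2F element (TTTCCCGC, TTTCGCGC, TTTGCCGC or TTTGGCGC), each in either orientation. Each motif was searched on its own, so neighbouring matches may overlap.
Ccnb2 promoter, chr9:70421505-70421804, minus strand: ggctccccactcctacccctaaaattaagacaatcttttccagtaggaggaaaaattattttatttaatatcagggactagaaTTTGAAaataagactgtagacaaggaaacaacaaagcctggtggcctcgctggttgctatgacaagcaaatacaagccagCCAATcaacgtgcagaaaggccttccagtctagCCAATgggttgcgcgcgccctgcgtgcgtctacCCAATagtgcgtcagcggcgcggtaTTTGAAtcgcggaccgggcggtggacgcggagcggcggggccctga
Cdc20 promoter, chr4:118437294-118437593, minus strand: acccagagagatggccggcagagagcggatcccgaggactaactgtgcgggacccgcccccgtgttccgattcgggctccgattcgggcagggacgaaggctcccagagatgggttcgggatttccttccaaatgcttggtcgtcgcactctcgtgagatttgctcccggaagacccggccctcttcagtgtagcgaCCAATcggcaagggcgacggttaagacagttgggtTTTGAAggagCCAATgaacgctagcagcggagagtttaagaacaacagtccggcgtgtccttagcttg
Cdk1 promoter, chr10:69352863-69353162, minus strand: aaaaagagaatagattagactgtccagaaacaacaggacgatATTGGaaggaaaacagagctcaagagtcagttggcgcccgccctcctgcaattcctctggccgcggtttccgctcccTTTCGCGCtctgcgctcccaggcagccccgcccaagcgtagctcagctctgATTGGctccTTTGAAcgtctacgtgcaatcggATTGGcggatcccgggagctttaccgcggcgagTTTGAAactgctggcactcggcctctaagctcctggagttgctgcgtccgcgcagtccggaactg
Pclaf promoter, chr9:65890073-65890372, plus strand: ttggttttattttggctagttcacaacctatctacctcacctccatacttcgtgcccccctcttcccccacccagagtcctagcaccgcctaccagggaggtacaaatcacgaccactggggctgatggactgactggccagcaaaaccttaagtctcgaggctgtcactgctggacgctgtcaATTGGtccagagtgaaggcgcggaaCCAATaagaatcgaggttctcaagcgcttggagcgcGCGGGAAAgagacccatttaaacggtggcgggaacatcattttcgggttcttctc

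Ccnb2, Cdc20 and Cdk1 hold both a CHR element and a CCAAT box in these windows, and Pclaf and Cdk1 hold an E2F element. Not every gene with a large change did so: the window of Nusap1, higher by 4.45, held none of these elements. For the counts below, the first window listed for each gene was used. In the G2/M list, 31 of 40 matched genes (77.5%) held a CHR element, against 14.3% of the 7270 tested genes with a window and 19.4% of all 27025 genes with a window. A CHR element together with a CCAAT box was found in 67.5% of the list and 6.23% of tested genes. In the S phase list, 9 of 28 matched genes (32.1%) held an E2F element, against 4.55% of tested genes and 2.32% of all genes with a window. Over all genes called higher, these lists included, CHR elements were found in 21.2%, against 13.1% of genes called lower, and E2F elements in 10.0% and 1.57%. A match in the letters is a description of the window and not a binding site.

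Biosynthetic genes accompanied the cell cycle genes. Of 21 genes of nucleotide and one-carbon synthesis, 19 were higher and 0 lower (median 1.24), and against depth-matched cells 7 of 17 tested were higher (median 0.58). Tyms makes thymidylate for DNA. It stood at 118 and 166 CPM in proliferating cells, against 9.98 and 16.4 CPM in non-proliferating cells, with a log2 fold change of 3.46 (SE 0.18, adjusted p 6.48e-07, edgeR quasi-likelihood). Psat1 and Phgdh belong to serine synthesis, which feeds one-carbon units. Psat1 stood at 121 and 108 CPM, against 20.8 and 28.4 CPM, and was higher by 2.24 (SE 0.19, adjusted p 1.63e-05, edgeR) against all and by 1.22 (SE 0.27, adjusted p 0.000145) against depth-matched cells. Phgdh was higher by 1.84 (SE 0.14) and 1.29 (SE 0.21). Shmt2, a mitochondrial one-carbon enzyme, was higher by 1.70 (SE 0.21) against all cells, but by 0.58 (SE 0.34, adjusted p 0.328, edgeR) against depth-matched cells.

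Genes of energy and protein turnover moved less, and fewer of them were called at matched depth. Calls became fewer there over all genes too, from 14.6% to 7.38% higher, so the loss is not particular to these lists. Of 24 oxidative phosphorylation genes, 17 were higher against all cells (median 0.57) and 4 against depth-matched cells (median 0.23). Those 4 were Cox5b, Cox7a2, Cycs and Ndufc1, with matched log2 fold changes between 0.37 and 0.76. Of 21 genes of ribosome biogenesis and growth, 15 were higher, and at matched depth 2, Ran and Nop58, with 1 lower. Ran, the nuclear transport GTPase, stood at 1007 and 960.5 CPM in proliferating cells, against 294 and 322 CPM in non-proliferating cells, and was higher by 1.69 (SE 0.11) and, at matched depth, by 1.13 (SE 0.13, adjusted p 1.17e-16, edgeR). The gene lower at matched depth was Myc, the growth-promoting transcription factor, by -0.84 (SE 0.30, adjusted p 0.0456, edgeR), while against all cells it was 0.39 (SE 0.21, adjusted p 0.199). Of 19 proteasome genes 11 were higher and at matched depth 2. Of 20 chaperone and secretion genes of the endoplasmic reticulum 9 were higher and at matched depth 0, with Hspa5 lower by -0.39 (SE 0.11). With the cells with non-T RNA also left out, 2 of these 20 were higher and 0 lower at matched depth (median 0.11). Of 16 glycolysis genes 5 were higher and 1 lower, and at matched depth 0 and 2. Of 19 cholesterol and fatty acid synthesis genes 5 were higher and at matched depth 0, with 1 higher at an unadjusted p under 0.05 by edgeR.

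Treg identity genes were lower as a share of RNA in proliferating Foxp3+ cells, but were not called against cells of the same depth. Of 15 Treg core genes tested, 0 were higher and 12 lower against all non-proliferating cells (median -0.65), 9 lower without the cells with non-T RNA (median -0.45), and 0 in either direction at matched depth (median -0.19). At an unadjusted p under 0.05 by edgeR, 1 core gene was higher and 2 were lower at matched depth. Counted per cell, the whole core list summed to 90.7 (MC38-Ova) and 109 UMIs (B16-Ova) in proliferating cells, against 55.4 and 47.5 UMIs in non-proliferating cells. At matched depth these sums were 84.3 and 86.5 UMIs in proliferating cells, against 91.3 and 80.5 UMIs in depth-matched cells. Ikzf2 stood at 372 and 479 CPM in proliferating cells, against 536 and 644 CPM in non-proliferating cells. Its log2 fold change was -0.47 (SE 0.11, adjusted p 0.0121, edgeR quasi-likelihood) against all and -0.04 (SE 0.13, adjusted p 0.907) against depth-matched cells. Il2ra, the IL-2 receptor alpha chain on which Treg cells depend, stood at 416 and 285 CPM, against 598 and 284 CPM, and the change of -0.26 (SE 0.15, adjusted p 0.223, edgeR) did not pass. Ctla4 stood at 1225 and 1477 CPM, against 1599.6 and 1956 CPM, and changed by -0.38 (SE 0.11, adjusted p 0.0231, edgeR) against all and 0.04 (SE 0.08) against depth-matched cells. Foxp3 itself belongs to the rule, and its level of 229 and 277 CPM, against 484 and 493 CPM, is given as a description only.

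**Figure D2:**
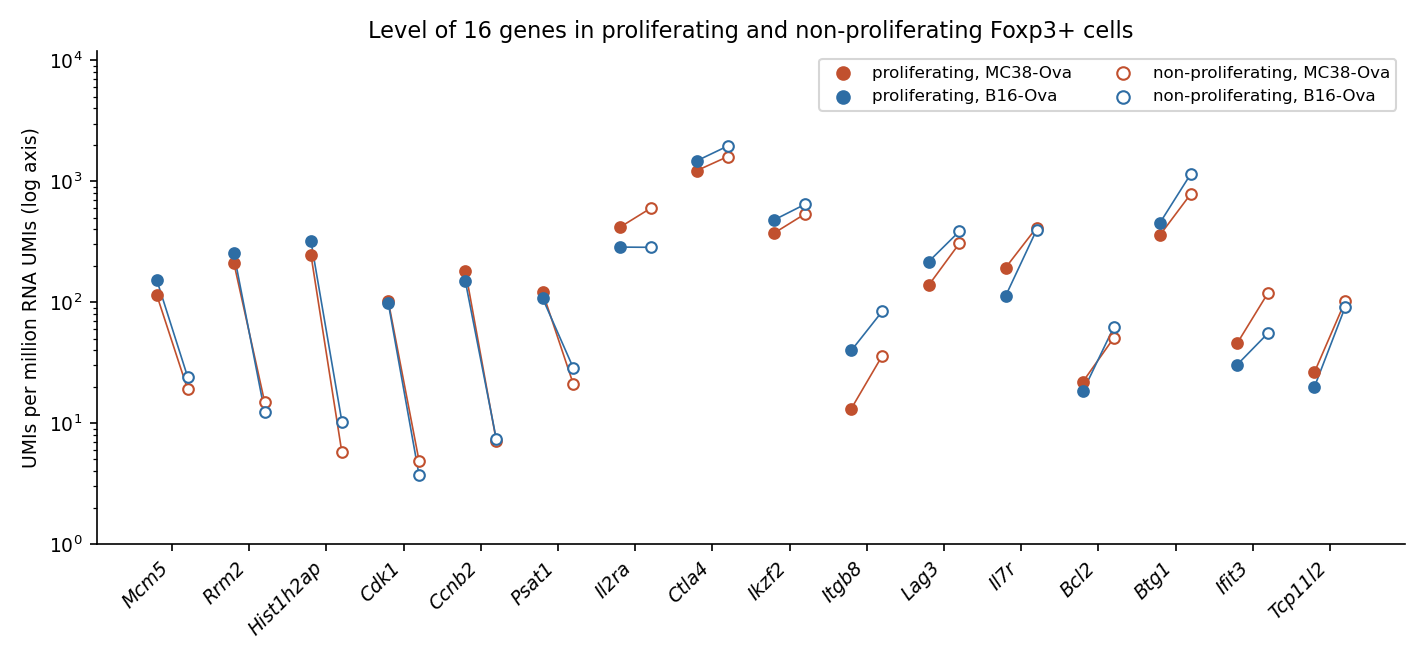
Level of 16 genes in CPM on a log axis, with filled points for proliferating and open points for non-proliferating Foxp3+ cells, each point 1 sum of cells and lines joining the sums of a pool. Cell cycle genes such as Cdk1 (103 and 98.9 against 4.85 and 3.70 CPM) differ far more than Treg genes such as Ctla4 (1225 and 1477 against 1599.6 and 1956 CPM).

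Most genes of the effector Treg programme followed the core list. Of 27 tested, 1 was higher and 16 lower (median -0.64), and at matched depth 1 of 26 was higher and 2 lower (median -0.12). The gene higher in both was Lgals1, galectin-1, a secreted lectin that Treg cells use in suppression (chromosome 15, 78926725 to 78930465). Lgals1 stood at 3746 and 2539.9 CPM in proliferating cells, against 2005 and 1681 CPM in non-proliferating cells. Its log2 fold change was 0.76 (SE 0.11, adjusted p 0.000843, edgeR) against all and 0.45 (SE 0.07, adjusted p 1.58e-08) against depth-matched cells, and 1 MC38-Ova member held 645 of its UMIs. The genes lower in both were Lag3, an inhibitory receptor for MHC class II, and Cxcr6, a chemokine receptor of tissue T cells. Lag3 stood at 137 and 216 CPM, against 306 and 385 CPM, and was lower at matched depth by -0.48 (SE 0.16, adjusted p 0.0301, edgeR). Cxcr6 stood at 68.3 and 94.5 CPM, against 133 and 187 CPM, and was lower at matched depth by -0.57 (SE 0.20, adjusted p 0.0325, edgeR). Several other effector genes that passed against all cells did not pass at matched depth. Icos, a costimulatory receptor, changed by -0.67 (SE 0.11) against all and -0.01 (SE 0.10) at matched depth, and Il10, a suppressive cytokine, by -1.22 (SE 0.16) and -0.08 (SE 0.22). Areg, a tissue-repair growth factor, changed by -0.94 (SE 0.12) and 0.03 (SE 0.13). On thinned counts, an Il10 UMI was still found less often in members, in 11.5% against 21.5% of non-proliferating cells in MC38-Ova. In B16-Ova it was found in 11.7% against 20.9%, and the 95% intervals overlapped in each pool. Icos was found in 93.1% (MC38-Ova) and 92.2% (B16-Ova) of members, against 93.4% and 91.5%. Areg was found in 27.6% and 42.7%, against 30.03% and 36.02%.

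Genes of resting and long-lived T cells were lower at both comparisons. Of 15 tested, 0 were higher and 11 lower (median -1.01), and at matched depth 5 of 13 were lower (median -0.65): Bcl2, Il7r, Lef1, Ly6c1 and Satb1. Il7r, the IL-7 receptor alpha chain of cells that persist without antigen (chromosome 15, 9505788 to 9530176), stood at 193 and 113 CPM in proliferating cells, against 413 and 395 CPM in non-proliferating cells. Its log2 fold change was -1.43 (SE 0.15, adjusted p 8.61e-05, edgeR) against all and -0.55 (SE 0.16, adjusted p 0.00992) against depth-matched cells. In the depth-matched sums the MC38-Ova levels were close, 259 against 267 CPM, while the B16-Ova levels were 137 against 286 CPM. On thinned counts an Il7r UMI was found in 46.0% of MC38-Ova members (interval 35.2 to 57.0) against 65.7% (60.0 to 71.0), and in 28.2% of B16-Ova members (19.7 to 37.9) against 60.7% (53.7 to 67.3). Bcl2, which blocks cell death (chromosome 1, 106538178 to 106714274), stood at 21.9 and 18.2 CPM, against 50.5 and 62.0 CPM, and its change was -1.47 (SE 0.22, adjusted p 0.000746, edgeR) against all and -1.43 (SE 0.32, adjusted p 0.000145) at matched depth. Lef1, a transcription factor of naive T cells, was lower by -0.84 (SE 0.17) against all and by -0.84 (SE 0.24, adjusted p 0.00672, edgeR) at matched depth. Satb1, a chromatin organiser, was lower by -1.01 (SE 0.17) and -0.70 (SE 0.21). In Il7r, Bcl2, Lef1 and Satb1 each proliferating sum was below the non-proliferating sum of its pool at both comparisons. Summed over the whole list, however, the depth-matched level was 1373 (MC38-Ova) and 839 CPM (B16-Ova) in proliferating cells, against 1387 and 1347 CPM in depth-matched cells, so the summed level differed mainly in B16-Ova.

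Some genes that hold T cells out of the cycle were lower too, but genes of this list moved in both directions. Of 19 genes of cell cycle inhibition and quiescence, 2 were higher and 10 lower (median -0.55). At matched depth 2 were higher and 4 lower of 18, the median was -0.08, and 8 of the 18 log2 fold changes were positive. Btg1 and Btg2, antiproliferative proteins that promote decay of messenger RNA, were lower in both. Btg1 stood at 360 and 454 CPM in proliferating cells, against 788 and 1153 CPM in non-proliferating cells, and was lower at matched depth by -0.70 (SE 0.12, adjusted p 1.43e-07, edgeR). Btg2 was lower at matched depth by -0.94 (SE 0.16), Tob1, of the same family, by -0.92 (SE 0.23), and Ccnd2, a G1 cyclin placed in this list, by -0.47 (SE 0.15). Cdkn2c, an inhibitor of the G1 kinases, was higher: it stood at 50.1 and 66.9 CPM, against 22.0 and 34.1 CPM, by 1.09 (SE 0.19, adjusted p 0.00198, edgeR) against all and 1.09 (SE 0.28, adjusted p 0.0013) at matched depth.

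Signalling genes showed fewer calls at matched depth, as did all genes, of which 10.9% were lower against all cells and 4.62% at matched depth. Of 19 early T cell receptor response genes, 0 were higher and 13 lower (median -0.63), and 8 of 18 were lower at matched depth, among them Nr4a3 (-1.09, SE 0.24), Nfkbid (-0.78, SE 0.19) and Tnfaip3 (-0.43, SE 0.14), which mark recent receptor or NF-κB signalling. Of 19 genes of the IL-2, IL-7 and IL-15 axis, 12 were lower and at matched depth 5 of 18, including Socs3, which dampens cytokine signals (-0.96, SE 0.22), and Stat5b, which carries them (-0.70, SE 0.25). Of 11 checkpoint receptor genes 6 were lower and at matched depth 2, Lag3 and Cd200. Of 10 costimulatory TNF receptor genes 7 were lower and at matched depth 1 of 9, Cd27 (-0.55, SE 0.16). Of 18 chemokine receptor and homing genes 12 were lower and at matched depth 2 of 17. Of 20 interferon response genes 14 were lower and at matched depth 5 of 19, with Ifit1 at 60.2 and 31.5 CPM in proliferating cells, against 164 and 69.4 CPM in non-proliferating cells (-1.31, SE 0.17 against all and -1.01, SE 0.22 at matched depth). Ifit3 and Ifit3b are close copies, so their separate counts are uncertain.

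Among stress genes and genes of cytotoxic cells, some values rested on few cells. Of 16 dissociation stress genes 1 was higher and 12 lower, and at matched depth 1 and 6. Hspa1a, a heat shock chaperone, stood at 11.3 and 33.2 CPM in proliferating cells, against 35.9 and 203 CPM in non-proliferating cells, a log2 fold change of -2.30 (SE 0.22). At matched depth it stood at 18.5 and 38.1 CPM, against 17.7 and 482 CPM, so the difference there lay in B16-Ova. It was detected in 6 and 17 members, and its copy Hspa1b shares much of its sequence. Of 17 cytotoxic genes 1 was higher and 10 lower. The higher one was Gzma, a granzyme, with 210 of its 280 MC38-Ova UMIs in 1 cell. At matched depth Gzma and Gzmc were higher, and Ccl5, Nkg7 and Xcl1 were lower, of 16. Markers of CD8 and natural killer cells other than the rule genes moved beside these: at matched depth they summed to 164 and 66.4 CPM in proliferating cells, against 418 and 112 CPM in depth-matched cells, with Fcer1g, Klra7 and Tyrobp lower, and their part in the cytotoxic values was not tested.

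The 12 genes with the smallest log2 fold changes among called genes of at least 20 CPM, receptor segments left out, came from varied lists or from none. Tcp11l2 (chromosome 10, 84576626 to 84614359) stood at 26.3 and 19.9 CPM in proliferating cells, against 102 and 91.6 CPM in non-proliferating cells, and was lower by -2.06 (SE 0.18) against all and -1.67 (SE 0.27, adjusted p 3.34e-08, edgeR) at matched depth. Slfn5, a member of the Schlafen family, was lower by -1.59 (SE 0.20) and -1.71 (SE 0.30). Itgb3, the integrin beta 3 chain, was lower by -1.50 (SE 0.19) and -1.23 (SE 0.25). Of the other 9 of these genes, Cxcl2, Lilr4b, Gm2682 and Bcl2 also passed at matched depth and Hspa1a has been given. Ccr3, Abcb1a, Kdm7a and Ccl4 did not, at matched log2 fold changes between -0.67 and -0.37. The UMIs of Cxcl2 came from 2 and 8 members, and 21 of the 30 in B16-Ova came from 1 cell.

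**Figure D3:**
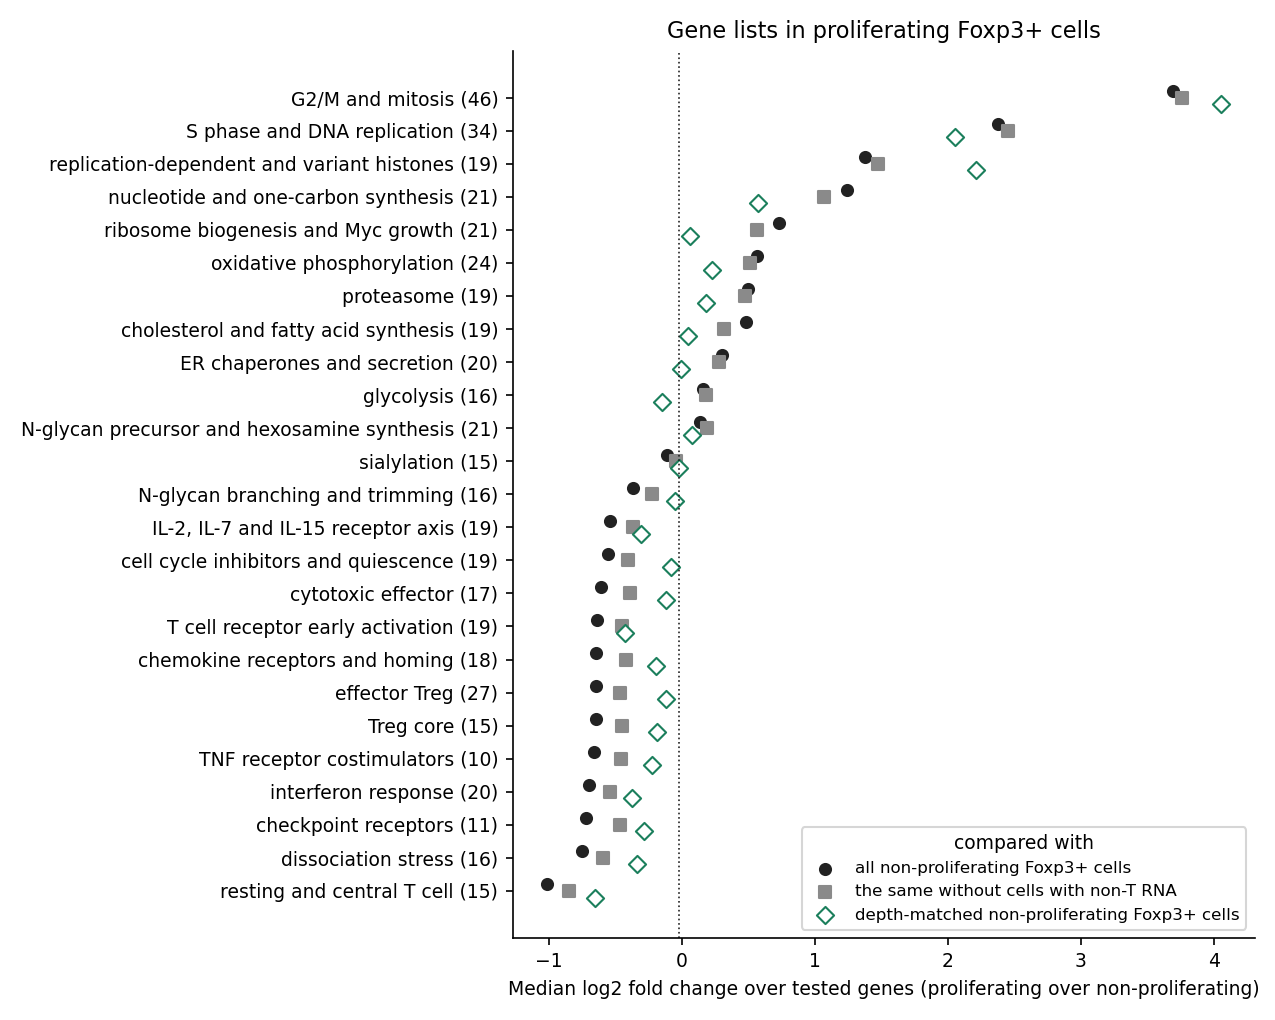
Median log2 fold change of each gene list, proliferating over non-proliferating Foxp3+ cells, against all (black), against all without cells with non-T RNA (grey) and against depth-matched cells (green diamonds), with the number of genes tested in brackets and the dotted line at the median of all genes, -0.02. The cell cycle lists keep their distance at matched depth, whereas the Treg core list lies at -0.65 against all and -0.19 against depth-matched cells, and the resting list at -1.01 and -0.65.

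Set beside proliferating CD8 cells, the members had few genes whose response was called different. In CD8 cells without Foxp3 UMIs, 849 proliferating against 4097 non-proliferating cells gave 1733 genes higher (15.6%) and 1239 lower (11.2%) of 11105. The interaction of state and lineage, over 8 sums, called 0 of 11212 genes higher (0%) and 2 lower (0.0178%) in the Foxp3+ response by edgeR's quasi-likelihood test. At an unadjusted p under 0.05 there were 635 of the 11212 genes in either direction. A share of about 0.05 passes such a cut where no gene differs. DESeq2 called 56 higher and 7 lower of 11212. Without cells with non-T RNA, 1 gene was higher (0.00949%) and 5 lower (0.0474%) of 10539. The first was Ccr7, the receptor that takes T cells to lymph nodes. In sums with every cell kept, it stood at 58.3 and 133 CPM in proliferating Foxp3+ cells, against 51.1 and 118 CPM in non-proliferating Foxp3+ cells. In CD8 cells of such sums it stood at 67.2 and 75.9 CPM in proliferating against 162 and 233 CPM in non-proliferating cells. The difference of the log2 fold changes was 1.67 (SE 0.20, adjusted p 0.0113, edgeR) without those cells and 1.74 (SE 0.18, adjusted p 0.0582) with them.

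Among the 5 lower genes were Areg, Gzmb and Mt1, with receptor segments Trbv17 and Trbv19. The levels that follow are from sums with every cell kept, in which cells with non-T RNA held 25.6% of the MC38-Ova members' UMIs. Gzmb, the granzyme that effector Treg and CD8 cells share, stood at 2092 and 844 CPM in proliferating Foxp3+ cells. In non-proliferating Foxp3+ cells it stood at 3792 and 1106 CPM. In CD8 cells it stood at 2636 and 1548 CPM in proliferating against 1887 and 893 CPM in non-proliferating cells. The difference of log2 fold changes was -1.11 (SE 0.13, adjusted p 0.0113, edgeR) without the cells with non-T RNA and -1.15 (SE 0.20, adjusted p 0.488) with them, and against depth-matched cells the Foxp3+ change alone was -0.08 (SE 0.08). For Areg the difference was -1.35 (SE 0.15, adjusted p 0.0113, edgeR) without and -1.36 (SE 0.17, adjusted p 0.0979) with them. Areg and Gzmb each overlap another annotated gene, so some of their reads may be missing from the counts.

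More L-Pha tag was counted on proliferating Foxp3+ cells, and at matched depth the difference depended on the scale. The median was 679 L-Pha UMIs (quartiles 467 to 1146) in MC38-Ova members, against 414 (284 to 687) in non-proliferating cells, a ratio of 1.64. In B16-Ova it was 960.5 (622 to 1418), against 479.5 (281 to 850), a ratio of 2.00. At matched depth the ratios were 1.04 and 1.00, and without cells with non-T RNA 1.53 and 1.96. Per 1000 RNA UMIs the members had less, 56.6 and 73.4 L-Pha UMIs against 89.5 and 117, ratios of 0.632 and 0.625. Per 100 hashtag UMIs, a second surface tag, the ratios were 1.33 and 1.39. At matched depth they were 0.794 and 0.866 per 1000 RNA UMIs and 1.20 and 1.14 per 100 hashtag UMIs. Barcodes with both hashtags under 150 UMIs held a median of 134 L-Pha UMIs, which no capture without lectin could set in context. With 2 pools the smallest permutation p is 0.5, so no test was made.

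PD-1 and Tim-3 tags differed little. PD-1 medians were 16.5 UMIs in MC38-Ova and 23 in B16-Ova members, against 16 and 18 in non-proliferating cells, and at matched depth 17 and 20.0, against 18 and 22. Tim-3 medians were 20.0 and 22 UMIs, against 19 and 21. Barcodes with both hashtags low held medians of 11 PD-1 and 14 Tim-3 UMIs, at a median of 2780.5 RNA UMIs. They came from the same capture and are no unstained control, so how far either tag stood above background was not tested.

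**Figure D4:**
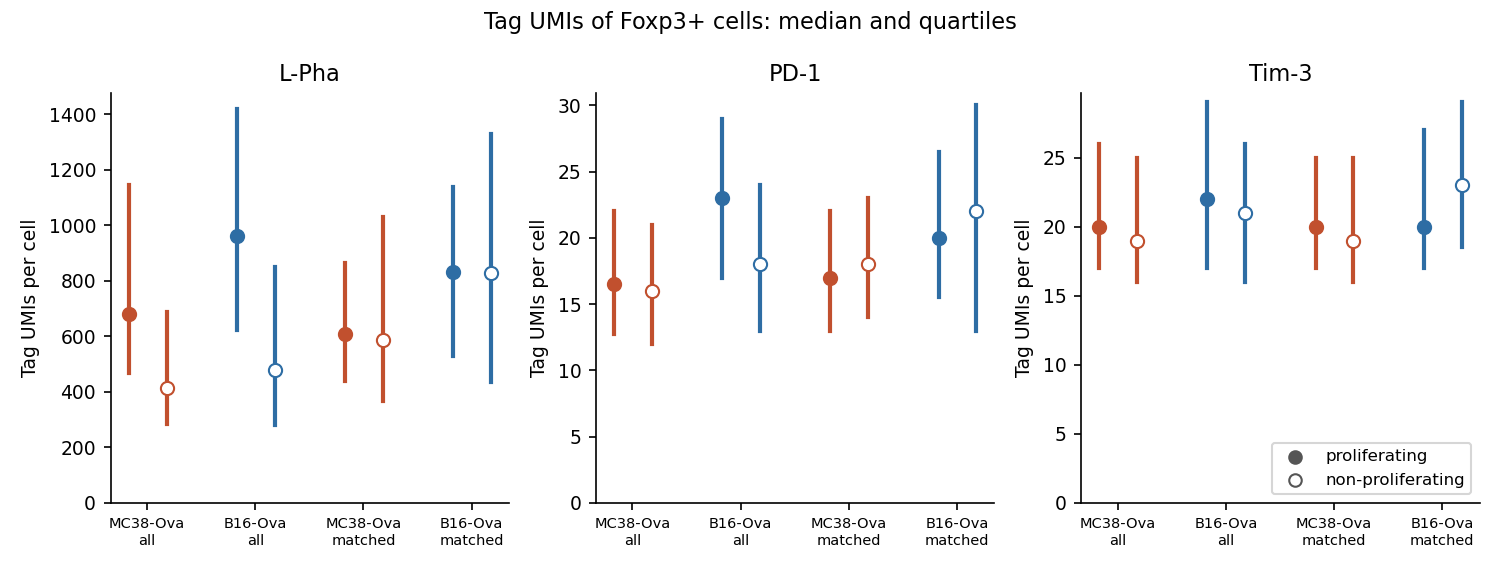
Median (points) and quartiles (bars) of L-Pha, PD-1 and Tim-3 tag UMIs per cell in proliferating (filled) and non-proliferating (open) Foxp3+ cells, all or depth-matched. The L-Pha medians of 679 and 960.5 in all proliferating cells stand above 414 and 479.5, and the depth-matched medians of 609 and 831 lie beside 588 and 829.

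Few genes of the enzymes that build these glycans were called at matched depth, where fewer of them held enough UMIs to be tested. Over all genes tested there, 7.38% were called higher and 4.62% lower. Of 16 N-glycan branching and trimming genes 0 were higher and 1 lower, Man1a, and at matched depth 0 of 12 passed in either direction by edgeR, also at an unadjusted p under 0.05. Mgat5, the enzyme that makes the branch L-Pha binds, stood at 8.15 and 9.40 CPM in proliferating cells, against 14.0 and 17.7 CPM in non-proliferating cells. Its log2 fold change was -0.83 (SE 0.31, adjusted p 0.076, edgeR), and at matched depth it was too low to test. Of 15 sialylation genes 1 was higher and 2 lower. The higher one was Nans, which makes sialic acid, at 103 and 107 CPM, against 47.6 and 59.2 CPM (0.99, SE 0.15, adjusted p 0.000993 against all, and 0.99, SE 0.23, adjusted p 0.000486 at matched depth, edgeR). St6gal1, a sialyltransferase, was lower by -1.29 (SE 0.28). Of 21 genes of N-glycan precursor and hexosamine synthesis 6 were higher, and at matched depth 1 of 17, Alg8, a glucosyltransferase of the precursor, at 27.6 and 23.2 CPM against 5.13 and 7.81 CPM (2.01, SE 0.31, and 1.92, SE 0.49).

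Between the tumours, proliferating Foxp3+ cells were alike in most genes. With the cells with non-T RNA left out, 3897 genes had at least 100 UMIs in both sums together, the median MC38-Ova over B16-Ova ratio was 0.994, and 50 genes were at least 2-fold higher in MC38-Ova and 34 in B16-Ova. Of these, 48 and 32 leaned the same way in non-proliferating Foxp3+ cells. The same count over all 3897 genes is not given here, so these counts have no background to be read against. Each tumour is 1 pool, so these are ratios of 2 sums with intervals for counting error, and no test was made. The following were picked after their values were seen. Interferon-induced genes were among those higher in MC38-Ova: Ifitm3 stood at 184 CPM in MC38-Ova and 30.4 CPM in B16-Ova members (ratio 6.07, interval 4.48 to 8.35), Usp18 at 69.9 and 13.8 CPM (5.08, 3.19 to 8.36) and Irf7 at 184 and 53.4 CPM (3.46, 2.70 to 4.46). Gzmb stood at 2712 and 858 CPM (3.16, 2.97 to 3.36). Higher in B16-Ova were Ramp1, a part of the receptor for the neuropeptide CGRP, at 25.3 and 116 CPM (0.218, 0.143 to 0.321), Cd74 at 163 and 527 CPM (0.308, 0.263 to 0.360) and Ccr8, a chemokine receptor of tumour Treg cells, at 149 and 309 CPM (0.482, 0.405 to 0.572). The receptor segment Trbv13-3 was found in 2 MC38-Ova and 26 B16-Ova members.

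With every member kept, the counts were 110 and 61 of 4406 genes, and the extremes came from few cells. Col3a1, Dcn, Tm4sf1, Htra1, Serpinh1 and Cald1, genes of stroma, led in MC38-Ova from 4 to 6 cells each. Ccl6, C1qa, Ccl8, Cxcl9, C1qb and C1qc, genes of macrophages, led in B16-Ova, with 516 of the 520 Ccl8 UMIs in 1 cell.

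**Figure D5:**
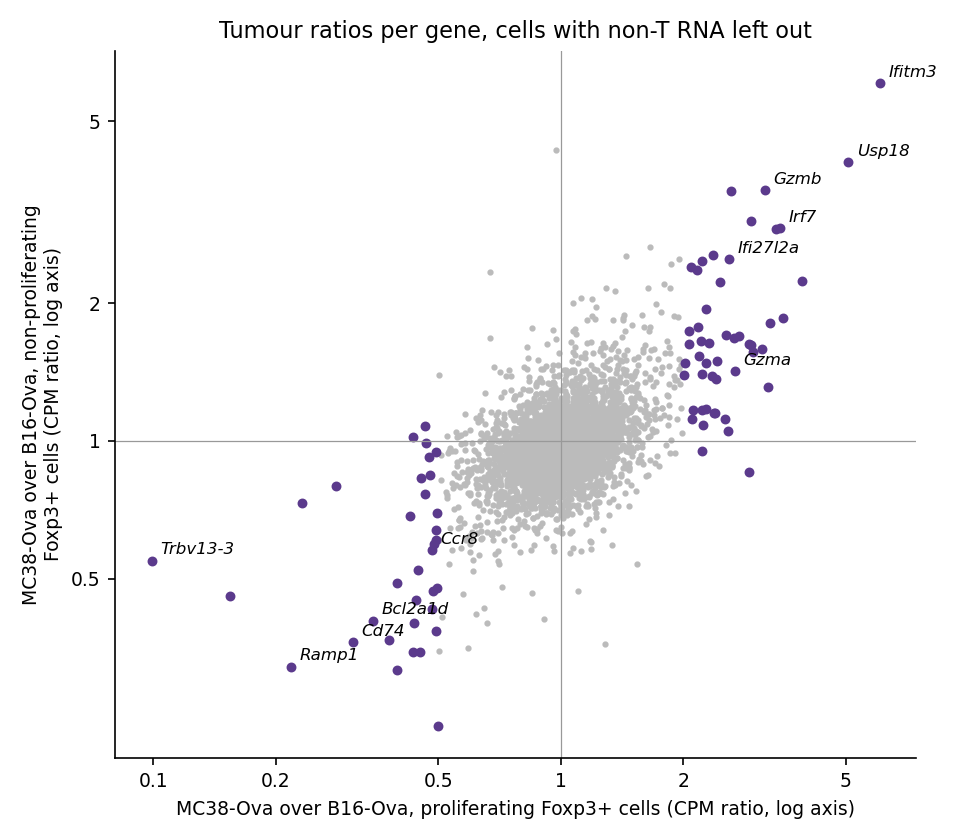
Ratio of CPM in MC38-Ova over B16-Ova for each gene with at least 100 UMIs, in proliferating (horizontal) and non-proliferating (vertical) Foxp3+ cells, both axes log, with cells with non-T RNA left out and genes past 2-fold in purple. Of these 50 and 34 genes, 48 and 32 lie on the same side of 1 on both axes, given without the same count over all genes.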

How the data were processed

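Cells came from 1 10x Genomics capture with an RNA and a tag library; the receptor library was not analysed here. The deposited values are raw UMI counts per barcode for genes and tags. Cell Ranger 3.1.0, R 3.6.1, Seurat 3.1.0 and the mm10 build are named in the submitters' processing notes, while the software version in the matrix is 3.0.2, per the file headers. Filters before deposit are not given in the sources used here.

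Barcodes with at least 500 genes, at most 10% mitochondrial UMIs and 1 hashtag of at least 150 UMIs and 3 times the other were kept (14992 of 19912); 4920 were not used. The growth protocol in the labels names MC38-OVA alone, while the tumour label names both. All libraries share 1 set of barcodes. Doublets within a pool were not removed, and the hashtag rule kept an MC38-Ova member with much melanoma-list RNA. Scrublet scores (scanpy 1.11.5) served as an alternative. Sums were tested with edgeR 4.0.16 (TMM, filterByExpr, quasi-likelihood F-test) and, as an alternative, DESeq2 1.42.0 in R 4.3.3; other steps ran in Python 3.11.15. Rule genes were left out of counts of calls. Gene coordinates are GENCODE vM21 on GRCm38. The fitting step was tested on simulated counts.

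Genes named are the rule genes and label markers, the 12 largest and 12 smallest log2 fold changes among called genes of at least 20 CPM with the same sign in both pools (receptor segments left out), up to 4 genes of each list by smallest p and any that describe a list, the extremes of the lineage difference and the 6 highest and 6 lowest tumour ratios. The members, gene lists and tests were chosen with earlier results of these data known. The version without cells with non-T RNA was added after the data were seen.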

Additional observations from a re-analysis of the deposited data

Results flagged for a closer look

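For 2 genes the response to the proliferating state differed between Foxp3+ and CD8 cells by the interaction test (edgeR's quasi-likelihood test, adjusted over 11212 genes).

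For the receptor segment Trbv17 the difference of log2 fold changes was -4.51 (SE 0.29, adjusted p 0.0045), and -4.40 (SE 0.32) without cells with non-T RNA. Trbv17 was found in 3 of 100 MC38-Ova and 3 of 116 B16-Ova proliferating Foxp3+ cells, with 5 and 3 UMIs, against 26 of 605 and 25 of 458 non-proliferating Foxp3+ cells, with 267 and 147 UMIs. Single non-proliferating cells held up to 62 and 33 of these. Receptor segments follow clones, and the receptor library was not analysed here.

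For the metallothionein gene Mt1, whose product binds metals, the difference was -1.68 (SE 0.14, adjusted p 0.0158), and -1.13 (SE 0.15, adjusted p 0.0227) without cells with non-T RNA. Mt1 stood at 378 (MC38-Ova) and 216 CPM (B16-Ova) in proliferating Foxp3+ cells, against 316 and 175 CPM in non-proliferating Foxp3+ cells. In CD8 cells it stood at 259 and 304 CPM in proliferating cells, against 63.0 and 71.4 CPM in non-proliferating cells.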

How the results depend on the processing

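Of 1377 tested comparisons of 106 named genes with an alternative, 1233 kept direction and side of the threshold, 136 fell below it and 8 changed sign. The sign changes at matched depth were Areg 0.034, Fasn -0.13, Itgb8 0.0068, Pdia6 -0.042, Pgam1 -0.27, Pgk1 -0.15 and Srm -1.05, and on thinned counts Pgk1 -0.011. With either pool left out, which gives values without a test, all 106 kept their direction. The choice of genes largely fixed this outcome, so it says little about stability. Genes of the largest changes were picked for the same sign in both pools, and the others for being called over those pools. The 1352 higher and 1009 lower genes became 450 and 222 with DESeq2, 788 and 327 with no pool block, 510 and 319 at matched depth, and 557 and 424 on thinned counts; requiring Cd4 gave 661 lower. The 0 higher and 2 lower genes of the lineage difference became 56 and 7 with DESeq2, 2 and 4 at matched depth, 34 and 96 with no low-count filter, and 1 and 5 without cells with non-T RNA. The causes were not tested.

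The proliferating share was 7.81% (MC38-Ova) and 9.91% (B16-Ova) at 5 or more proliferation UMIs and 12.9% and 19.0% with Cd4 required, and 18.9% in B16-Ova with at least 2 Foxp3 UMIs. The L-Pha ratio was 1.11 and 1.46 on thinned counts and 1.04 and 1.00 at matched depth (1.02 and 1.00 also without cells with non-T RNA), 0.632 and 0.625 per 1000 RNA UMIs, and 1.33 and 1.39 per 100 hashtag UMIs; with Cd4 required it was 1.72 in B16-Ova. The PD-1 ratio, 1.03 and 1.28, was 0.944 and 0.909 at matched depth (0.889 and 0.909 also without those cells), 0.426 and 0.389 per 1000 RNA UMIs, 0.883 and 0.903 per 100 hashtag UMIs, and 1.05 in B16-Ova on thinned counts; per 100 hashtag UMIs at matched depth it was 1.19 and 1.17. The Tim-3 ratio, 1.05 and 1.05, was 0.432 and 0.353 per 1000 RNA UMIs and 0.924 and 0.785 per 100 hashtag UMIs, and 1.34 and 1.03 on that last scale at matched depth. With at least 2 Foxp3 UMIs it was 1 and 1, with Cd4 required 1.02 and 1, on thinned counts 1 and 0.913, and at matched depth 0.870 in B16-Ova (0.870 also without those cells). Genes 2-fold apart between tumours, 110 and 61, became 50 and 34 without cells with non-T RNA.

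With 1 capture, 2 pools and 216 cells, genes of few UMIs, Mgat5 among them, could not be tested at matched depth, and no value holds for mice in general.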
